A study of Rattus norvegicus with 6 samples.

Results

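Described here are 10 genes of the YAP, TEAD and SRF pathways in cultured rat cardiac fibroblasts: the coactivators Yap1 and Wwtr1, the DNA-binding partner Tead1, the transcription factor Srf, the inhibitory regulators Lats2 and Amotl2, and the target genes Ankrd1, Ccn1, Ccn2 and Vcl. They were taken by gene symbol from a table of 30560 genes, each symbol matched 1 row, and all 10 were among the 12024 genes tested, those averaging 1 FPKM or more across the 6 libraries. FPKM is a count of sequenced fragments scaled to the length of the gene and to the total of the library, so levels can be compared between genes. The study sequenced polyadenylated RNA of fibroblasts from the ventricles of newborn Sprague-Dawley rats aged 1 to 2 days. The cells were enriched by attachment to the dish for a few hours, and all of them were kept without serum overnight. Then 3 cultures received 50 nM of an antagomiR, an antisense oligonucleotide against the microRNA miR-142-3p, and 3 received 50 nM of the control oligonucleotide labelled NC, both with the reagent Lipofectamine RNAiMAX. The labels name no deleted gene or transgene in either group. Whether the 3 libraries of a group stem from different isolations is not stated, and a p-value here covers just the spread among these libraries, which may be technical. The antagomiR acts on the mature microRNA, which these libraries do not measure, and its silencing was therefore not checked.

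The question addressed by the comparison is which transcripts differ when miR-142-3p is targeted. The mature rat microRNA, on chr10:73055155-73055177 of the plus strand in the RefSeq build GRCr8, is shown because it is the target of the treatment, with its seed (bases 2 to 8) in capitals.
rno-miR-142-3p: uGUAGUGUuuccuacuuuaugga

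YAP1 and TAZ, the product of Wwtr1, are coactivators that move between cytoplasm and nucleus. In the Hippo pathway the LATS kinases phosphorylate them and keep them out of the nucleus, and angiomotin proteins such as AMOTL2 hold them in the cytoplasm or at junctions. In the nucleus they bind TEAD factors on the promoters and enhancers of genes such as Ccn1, Ccn2 and Ankrd1, and Lats2 and Amotl2 are themselves targets, which closes a negative feedback loop. SRF works with myocardin-related cofactors, which are released when actin is polymerised, and with ETS-family cofactors, and it drives genes of the actin cytoskeleton such as Vcl. In fibroblasts both systems respond to stiffness and tension and are known for their part in the contractile myofibroblast state.

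The 4 genes grouped here as targets fell, and none of the 6 coactivators, factors and regulators was called. The 6 include Lats2 and Amotl2, which are YAP targets too, so not every target fell. Ankrd1, Ccn1, Ccn2 and Vcl were lower under the antagomiR, by 18.9% for Ccn2 to 37.7% for Ankrd1 in mean FPKM, and none of the 10 genes rose. Calls are from limma on log2(FPKM + 1), two-sided, with a Benjamini-Hochberg adjusted p under 0.05 over all tested genes. Thus 4 of the 10 were called, all of them lower, where 26.7% of all tested genes were called, 9.21% lower and 17.5% higher. In 5 of the 10 every antagomiR library was below every NC library, against 15.4% of tested genes, and in 1, Yap1, every antagomiR library was above, against 29.2%. The median log2 fold change of the 10 was -0.22, against 0.06 over all tested genes. The 10 genes were chosen with earlier results of these data known, so these counts describe them and are not a test. All log2 fold changes given are antagomiR minus NC on the log2(FPKM + 1) scale.

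Some facts of the libraries bear on these values. Totals recovered from the FPKM values were 19472409 to 24622667 fragments per library, and each of the 10 genes had between 1732 and 128148 fragments in a library, so counting error was at most 2.4% of a value (SD). NC replicate 3 stood apart: the first principal component held 77.2% of the variance and placed it at -13.8, the other NC libraries at -36.1 and -30.9, and the antagomiR libraries at 26.3 to 27.3. For 7 of the 10 genes NC replicate 3 was the NC library nearest to the antagomiR mean, as it was for 42.3% of tested genes. All 10 varied more among the NC than among the antagomiR libraries. The share of all tested genes that did so was not computed, so this is not read as a trait of the 10. Leukocyte transcripts were higher under the antagomiR and in NC replicate 3 than in the other NC libraries. The 16 leukocyte markers, none of them listed at 0 in all libraries, summed to 148, 219 and 752 FPKM in NC replicates 1 to 3 and to 975 to 1091 FPKM under the antagomiR, and 7 of 16 rose, or 15 of 16 without NC replicate 3, where 17.5% and 26.5% of all tested genes rose. Of these sums Lyz2 alone held 62.7, 105 and 390 FPKM in NC replicates 1 to 3 and 484 to 566 FPKM under the antagomiR. Cd68, Cd74, Mrc1, C1qa, C1qb and C1qc were higher in NC replicate 3 than in any antagomiR library. They were not called with all libraries. The 9 endothelial markers analysed summed to at most 6.93 FPKM in any library, and Emcn was listed at 0 in all. The 12 fibroblast markers summed to 15500 to 15822 FPKM under NC and 14836 to 15253 FPKM under the antagomiR. Of them 6 rose and 3 fell, against 17.5% and 9.21% of all tested genes. Col1a1, Col1a2, Col3a1 and Fn1 made up most of these sums, so the sums hide changes of lower genes. Mean Pdgfra went from 8.53 FPKM under NC to 27.5 FPKM under the antagomiR, Postn from 687 to 1272 FPKM and Thy1 from 47.7 to 34 FPKM. Fewer cells of a type and less RNA per cell cannot be told apart in such bulk samples, and the part of the leukocyte transcripts in the results was not tested. Without NC replicate 3, 6 of the 10 genes were called: the 4 above and Tead1 fell, and Yap1 rose, where 13.9% and 26.5% of tested genes fell and rose.

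**Figure D1:**
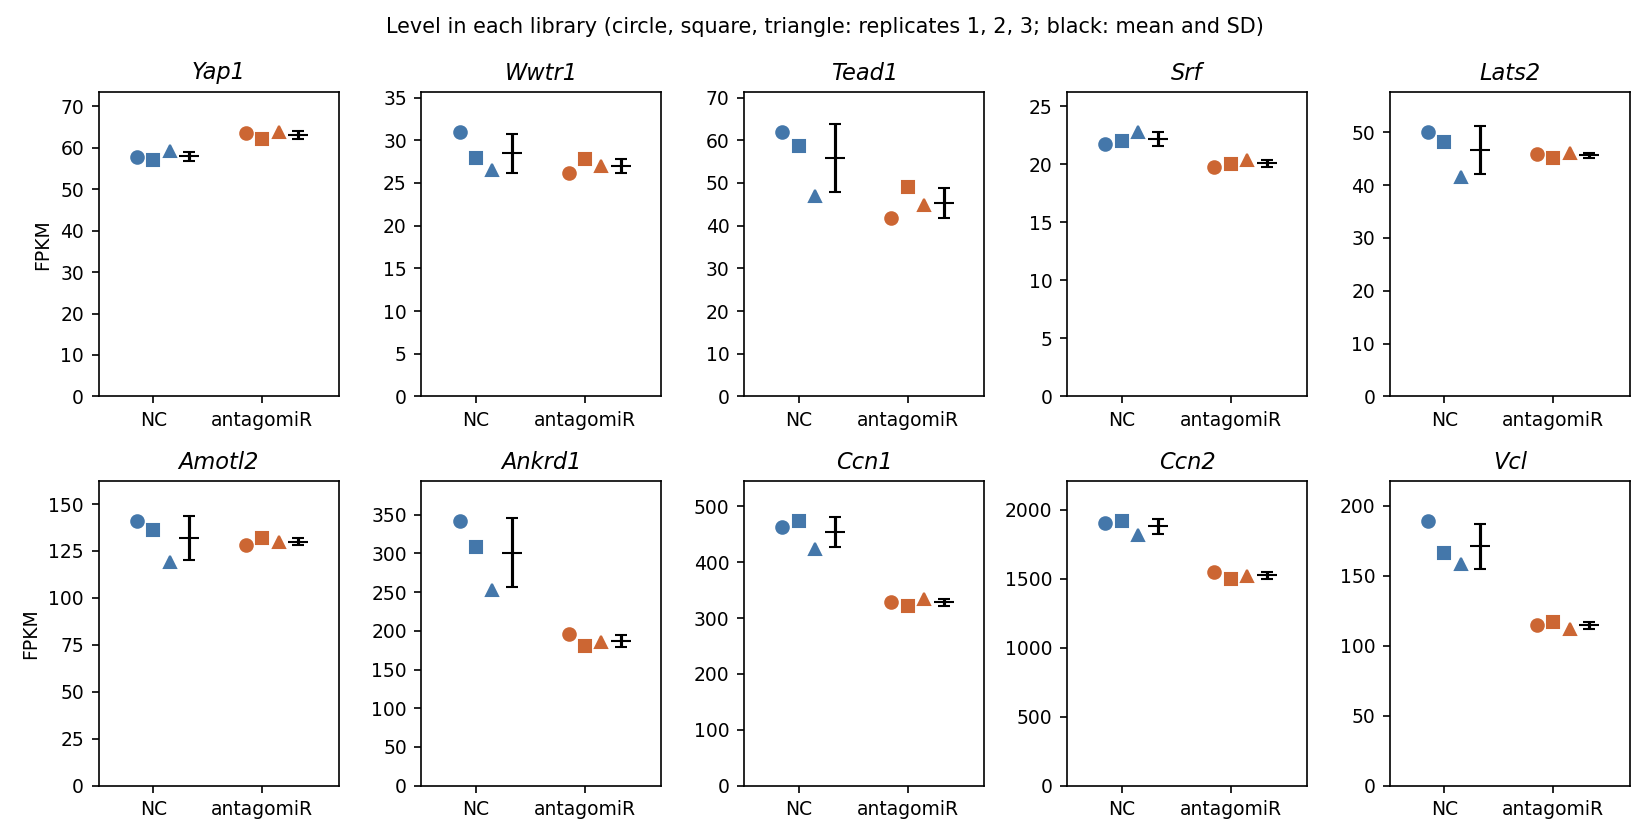
FPKM of each of the 10 genes in every library, by group; symbols mark replicates 1, 2 and 3, black marks give the mean and SD (n = 3), and each axis starts at 0. The 3 antagomiR libraries lie below the 3 NC libraries for Srf, Ankrd1, Ccn1, Ccn2 and Vcl, above them for Yap1, and overlap them for Wwtr1, Tead1, Lats2 and Amotl2.

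Neither coactivator gene was called. Yap1 (ENSRNOG00000005933, chr8:5095722-5167010 in the build mRatBN7.2, as for all gene positions here unless named otherwise), with values here and below in replicate order, had 57.8, 57.0 and 59.2 FPKM under NC and 63.5, 62.1 and 63.9 FPKM under the antagomiR. The lowest antagomiR library was above the highest NC library, but the log2 fold change of 0.12 (95% interval 0.01 to 0.23) was not called (limma adjusted p = 0.0924). The 95% intervals here and below are not adjusted for the number of genes, so an interval can exclude 0 without a call. For Yap1, omitting NC replicate 3 gave 0.14, which was called (adjusted p = 0.0344), the one alternative fit of 15 that called this gene. Wwtr1 (ENSRNOG00000016617, chr2:141648108-141766968), which encodes TAZ, had 31.0, 27.9 and 26.5 FPKM under NC and 26.2, 27.8 and 27.0 FPKM under the antagomiR. The groups overlapped, and the log2 fold change was -0.07 (95% interval -0.23 to 0.09, limma adjusted p = 0.49). Yap1 had 1.86, 2.04 and 2.24 times the FPKM of Wwtr1 in NC replicates 1 to 3 and 2.43, 2.23 and 2.36 times under the antagomiR. Those ranges overlap at NC replicate 3, and the summed FPKM of the pair was 86.5 ± 2.04 in NC and 90.1 ± 0.653 under the antagomiR (SD, n = 3).

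Tead1, the most abundant TEAD gene in these cells, was lower under the antagomiR without passing the test, and the make-up of the TEAD family differed. Tead1 (ENSRNOG00000015488, chr1:166792628-167003369) had 62.0, 58.7 and 46.9 FPKM under NC and 41.9, 49.0 and 44.9 FPKM under the antagomiR. NC replicate 3 lay within the antagomiR range, and the log2 fold change was -0.29 (95% interval -0.55 to -0.03, limma adjusted p = 0.0972). Omitting NC replicate 3 gave -0.41, which was called (adjusted p = 0.00312). The paralog Tead2 rose, from 9.1, 9.52 and 9.73 to 18.7, 17.1 and 17.9 FPKM, a log2 fold change of 0.85 (limma adjusted p = 0.000144). Tead3 fell from 30.0 ± 1.19 to 24.2 ± 0.846 FPKM (-0.30, adjusted p = 0.00769) and Tead4 from 6.8 ± 0.0975 to 4.87 ± 0.212 FPKM (-0.41, adjusted p = 0.00356; SD, n = 3). The directions of Tead2, Tead3 and Tead4 and their calls were the same under median-ratio scaling and quantile normalization. Tead2 made up 8.4% to 10.6% of the summed TEAD FPKM under NC and 17.9% to 20.7% under the antagomiR, and Tead1 50.9% to 57.5% and 46.3% to 51.4%. Of the 4 shares only that of Tead1 had overlapping ranges. The sum was 102 ± 8.63 FPKM under NC and 92.2 ± 2.68 FPKM under the antagomiR, and NC replicate 3, at 92.2 FPKM, lay within the antagomiR range.

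**Figure D2:**
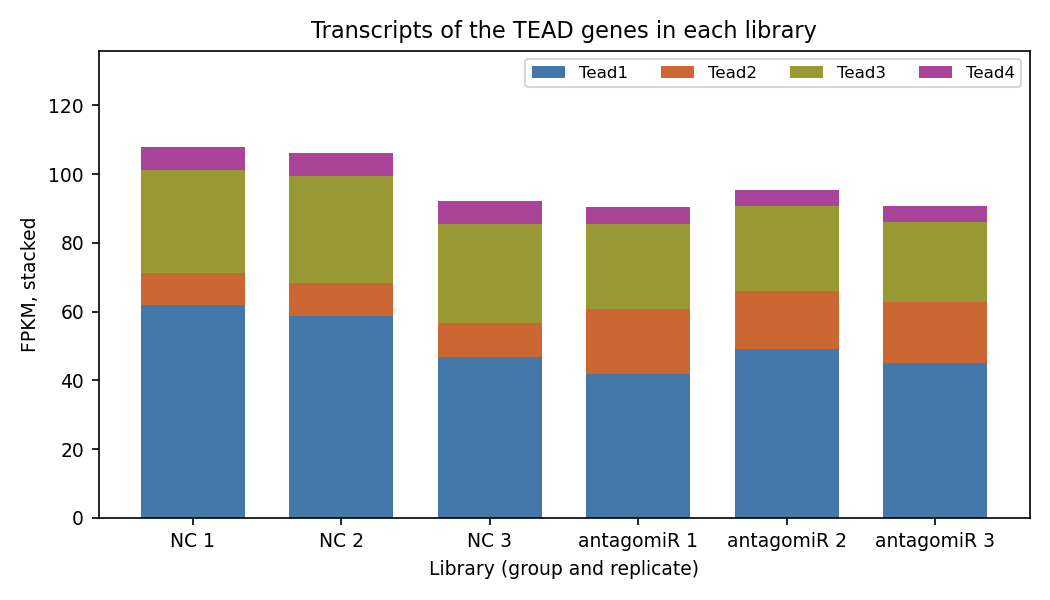
FPKM of the 4 TEAD genes stacked for each library; bars start at 0 and the full height is the summed FPKM of the family. The Tead2 segment is 9.1 to 9.73 FPKM in the NC libraries and 17.1 to 18.7 FPKM in the antagomiR libraries, while the full height of NC replicate 3 is close to the antagomiR libraries.

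Srf itself was not called. Srf (ENSRNOG00000018232, chr9:14426472-14435733), with the lowest level of the 10, had 21.7, 22 and 22.8 FPKM under NC and 19.8, 20 and 20.4 FPKM under the antagomiR. The groups did not overlap, and NC replicate 3 was the NC library farthest from the antagomiR values. The log2 fold change of -0.14 (95% interval -0.26 to -0.02) was not called with FPKM as deposited (limma adjusted p = 0.0758). Median-ratio scaling gave -0.21 (adjusted p = 0.0222) and quantile normalization -0.22 (adjusted p = 0.0151). Both called Srf, so that 5 of the 10 were called lower there, where 12.3% and 15.5% of tested genes were. Over all tested genes, quantile normalization shifted the median change (log2) by -0.11 and median-ratio scaling by -0.06. The replicate spread of Srf was 2.68% of the mean in NC, close to the counting error.

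The inhibitory regulators Lats2 and Amotl2 showed no difference larger than the replicate spread. Lats2 (ENSRNOG00000056343, chr15:31825092-31877220), a kinase that inactivates YAP and TAZ, had 50.1, 48.2 and 41.5 FPKM under NC and 45.8, 45.1 and 46.0 FPKM under the antagomiR. The antagomiR values fell inside the NC range, and the log2 fold change was -0.03 (95% interval -0.20 to 0.15, limma adjusted p = 0.838). Amotl2 (ENSRNOG00000008487, chr8:103302992-103318910) had 141, 136 and 119 FPKM under NC and 128, 132 and 130 FPKM under the antagomiR. These values also fell inside the NC range, at -0.02 (95% interval -0.18 to 0.15, adjusted p = 0.896). Both intervals lie above the fitted log2 fold changes of Ankrd1, Ccn1, Ccn2 and Vcl, but they overlap the interval of Ccn2 (-0.46 to -0.14). The genes were not tested against each other. For both genes the sign depended on the libraries: it was negative without NC replicate 3, at -0.10 and -0.09, and positive without NC replicate 1, at 0.03 for each. Lats2 had 3.39 times the FPKM of its paralog Lats1 in each NC library and 2.81 to 3.14 times under the antagomiR. Amotl2 made up over 92% of the summed FPKM of Amotl1 and Amotl2 in every library.

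Among the targets the ankyrin repeat gene Ankrd1 had the largest fall. Its product, known in heart muscle as a nuclear and sarcomeric stress protein, is a standard readout of YAP activity. Ankrd1 (ENSRNOG00000018598, chr1:233815851-233834919) had 342, 308 and 253 FPKM under NC and 196, 181 and 185 FPKM under the antagomiR. Every antagomiR library was below every NC library, and NC replicate 3 was the nearest of them. The mean went from 301 ± 45 to 187 ± 7.71 FPKM (SD, n = 3), a log2 fold change of -0.67 (SE 0.109, limma adjusted p = 0.00463) that was -0.79 without NC replicate 3 (adjusted p = 7.04e-05). Ankrd1 is also a cardiomyocyte transcript. The 14 cardiomyocyte markers analysed summed to 438 to 484 FPKM under NC and to 363 to 430 FPKM under the antagomiR. Tnnt2, at 339 FPKM under NC and 254 FPKM under the antagomiR on average, made up most of it. Of the 12 tested markers 1, Tnnt2, fell and 3, Myh7, Actc1 and Myl2, rose. In so short a list this is close to the 9.21% and 17.5% of all tested genes that fell and rose. The part of cardiomyocytes in the level of Ankrd1 was not tested.

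The CCN genes encode secreted matricellular proteins. Ccn1, formerly Cyr61 (ENSRNOG00000014350, chr2:234562408-234565484), had 464, 474 and 424 FPKM under NC and 328, 321 and 335 FPKM under the antagomiR. The groups lay far apart against their spread, with 454 ± 26.6 and 328 ± 6.9 FPKM (SD, n = 3) and a log2 fold change of -0.47 (SE 0.063, limma adjusted p = 0.00214). Ccn2, formerly Ctgf (ENSRNOG00000015036, chr1:20802199-20805734), encodes a profibrotic factor and had a mean in NC at or above that of 99.9% of tested genes. It had 1902, 1918 and 1816 FPKM under NC and 1546, 1501 and 1522 FPKM under the antagomiR. The groups did not overlap, yet the call of its log2 fold change of -0.30 (SE 0.069, limma adjusted p = 0.0173) was the least firm of the 4. It was lost with no filter on low genes (adjusted p = 0.0995, where 3 of the 10 and 5.46% of all genes were called lower), without NC replicate 2 (0.0749) and without antagomiR replicate 1, 2 or 3 (0.0647, 0.0818 and 0.0952). The value stayed between -0.37 and -0.20 in all 15 alternative fits. The FPKM of Ccn2 was 4.05 to 4.28 times that of Ccn1 in NC and 4.55 to 4.71 times under the antagomiR, and these ranges did not overlap.

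Vcl, which encodes vinculin, a protein that links integrin adhesions to actin filaments and a target of SRF, had the smallest adjusted p of the 10. Vcl (ENSRNOG00000010765, chr15:3265815-3355606) had 189, 166 and 158 FPKM under NC and 115, 117 and 112 FPKM under the antagomiR. Every antagomiR library was below every NC library, with means of 171 ± 16.4 and 115 ± 2.26 FPKM (SD, n = 3) and a log2 fold change of -0.57 (SE 0.074, limma adjusted p = 0.00186). The falls of Ankrd1, Ccn1 and Vcl were called in all 15 alternative fits.

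**Figure D3:**
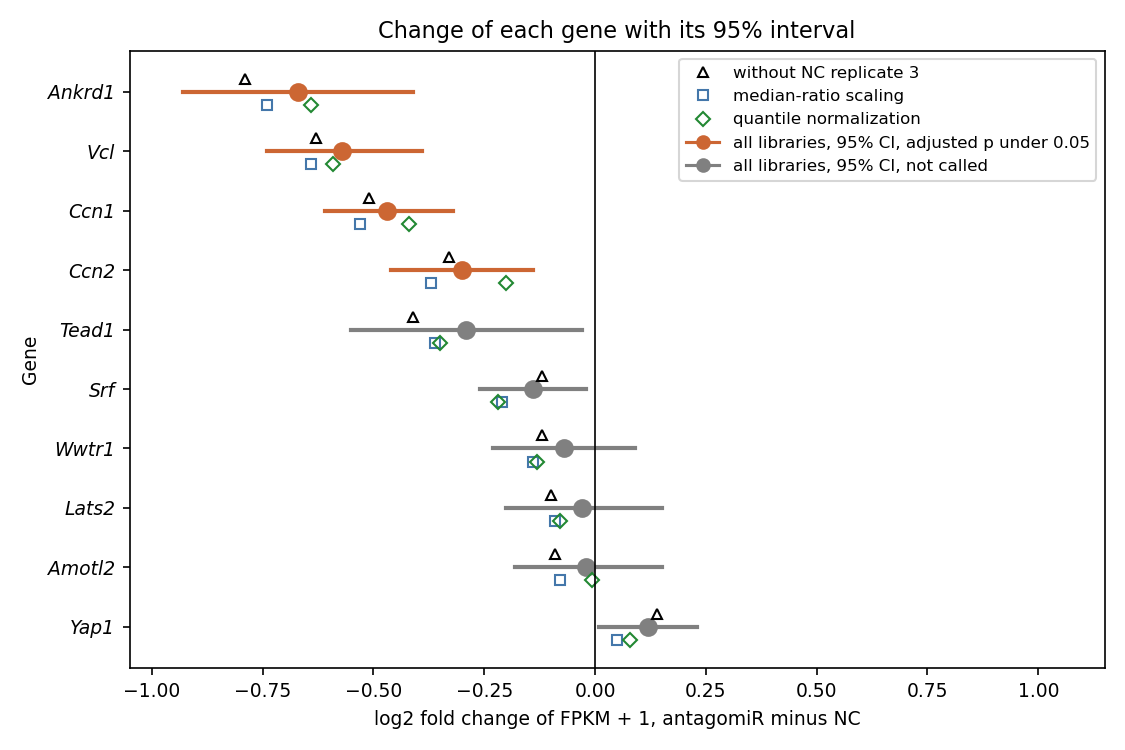
Log2 fold change of FPKM + 1, antagomiR minus NC, for each gene (dot) with its 95% interval (line), and its value without NC replicate 3 and under the 2 other scalings (median-ratio, quantile). Ankrd1, Vcl, Ccn1 and Ccn2 lie at -0.67, -0.57, -0.47 and -0.30, while the intervals of Wwtr1, Lats2 and Amotl2 include 0. The intervals are not adjusted for the number of genes, and those of Yap1, Tead1 and Srf exclude 0 without a call.

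The order of the levels differed between the groups at 1 place among genes whose ranges were apart. In NC it ran Ccn2, Ccn1, Ankrd1, Vcl, Amotl2, then Yap1, Tead1 and Lats2, where Yap1 overlapped Tead1 and Tead1 overlapped Lats2, then Wwtr1 and Srf. In NC the lowest Vcl value, 158 FPKM, was above the highest Amotl2 value, 141 FPKM. Under the antagomiR the lowest Amotl2 value, 128 FPKM, was above the highest Vcl value, 117 FPKM. Ankrd1 had 2.12 to 2.42 times the FPKM of Amotl2 in NC and 1.37 to 1.53 times under the antagomiR, so the ratio of these 2 known YAP targets was lower in every antagomiR library than in any NC library. The gene pairs given as ratios were chosen after their values were seen.

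Promoter sequence was examined because several of these genes are textbook TEAD or SRF targets. Promoters from RefSeq (build GRCr8) were used for 7 of the 10 genes; those of Ankrd1, Lats2 and Tead1 were not analysed here. The 250 bases before each start were searched on both strands for the TEAD motif CATTCC, which reads as GGAATG on the other strand, and for the CArG box bound by SRF; the motifs do not overlap each other. At least 1 TEAD motif was found in 12.1% of the 33469 promoters of this length and at least 3 in 0.0807%. A CArG box was found in 1.5% and at least 2 in 0.0209%. The windows shown are those of the called genes with a RefSeq promoter and of Amotl2 and Srf, for contrast, with the motifs in capitals.
Ccn2, chr1:22624615-22624864, minus strand: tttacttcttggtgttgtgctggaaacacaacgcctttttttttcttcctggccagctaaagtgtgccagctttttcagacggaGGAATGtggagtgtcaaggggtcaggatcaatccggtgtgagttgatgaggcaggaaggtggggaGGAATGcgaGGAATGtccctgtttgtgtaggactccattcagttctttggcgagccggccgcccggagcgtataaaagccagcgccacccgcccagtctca
Ccn1, chr2:237225690-237225939, minus strand: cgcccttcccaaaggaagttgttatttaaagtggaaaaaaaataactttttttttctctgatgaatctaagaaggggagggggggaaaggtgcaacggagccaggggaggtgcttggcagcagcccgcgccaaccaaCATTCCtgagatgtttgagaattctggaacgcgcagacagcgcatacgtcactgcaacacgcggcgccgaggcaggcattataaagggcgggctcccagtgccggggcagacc
Amotl2, chr8:112182376-112182625, plus strand: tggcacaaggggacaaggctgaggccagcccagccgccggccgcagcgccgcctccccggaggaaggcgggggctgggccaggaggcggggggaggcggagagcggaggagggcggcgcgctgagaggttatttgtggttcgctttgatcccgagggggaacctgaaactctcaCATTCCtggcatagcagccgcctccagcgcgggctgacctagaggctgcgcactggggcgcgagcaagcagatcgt
Vcl, chr15:3404801-3405050, minus strand: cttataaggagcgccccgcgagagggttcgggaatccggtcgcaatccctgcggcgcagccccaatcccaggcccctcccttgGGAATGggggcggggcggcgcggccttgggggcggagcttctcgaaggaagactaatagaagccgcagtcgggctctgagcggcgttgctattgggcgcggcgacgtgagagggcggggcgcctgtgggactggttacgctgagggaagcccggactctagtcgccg
Srf, chr9:21923826-21924075, plus strand: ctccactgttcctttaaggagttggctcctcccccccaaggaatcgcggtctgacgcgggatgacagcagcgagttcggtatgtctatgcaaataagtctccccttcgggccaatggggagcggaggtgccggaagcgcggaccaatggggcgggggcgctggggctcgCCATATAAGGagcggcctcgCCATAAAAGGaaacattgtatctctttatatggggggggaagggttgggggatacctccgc
Ccn2 holds 3 TEAD motifs, which begin 166, 101 and 92 bases before the start. Ccn1, Amotl2, Vcl and Yap1 hold 1 each, at 113, 76, 167 and 116 bases. Thus Ccn1, which fell, and Amotl2, which was not called, both carry 1 motif in this window. Srf holds 2 CArG boxes, at 81 and 61 bases. The Vcl window opens with 9 letters that match a CArG box short of its first base, so the search of this window could not count it. Wwtr1 holds neither motif. These matches describe letters in the window and do not show binding.

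Other genes of the pathways were read from 7 lists, which were chosen with earlier results of these data known. Some genes are in more than 1 list, and the counts describe the lists without testing them. They stand against the 17.5% of all tested genes that rose and the 9.21% that fell (26.5% and 13.9% without NC replicate 3). Among 8 tested coactivators, TEAD factors and their cofactors, 1 rose and 2 fell, all of them TEAD genes, which in so short a list is close to those shares. The cofactor gene Vgll4 was at 25 FPKM under NC and 22.7 FPKM under the antagomiR (-0.13, limma adjusted p = 0.117). Vgll2 was listed at 0 in every library. Of 25 tested genes of the Hippo kinase core and its upstream regulators, 6 were higher and 2 lower by the test, near the shares over all tested genes, and the median log2 fold change was -0.02. Without antagomiR replicate 2 or 3 the count of called genes was 4 or 5. Map4k4, a kinase that can activate LATS, rose from 44.8 ± 1.11 to 60.1 ± 0.556 FPKM (0.42) and Taok3, a kinase upstream of MST, from 11 ± 0.309 to 14.5 ± 0.568 FPKM (0.37). The protocadherin gene Dchs1 rose from 2.59 ± 0.455 to 4.9 ± 0.0442 FPKM (0.72), and Ptpn14, a phosphatase that binds YAP, fell from 19.9 ± 1.39 to 14.7 ± 0.795 FPKM (-0.41; SD, n = 3). Lats1, the other LATS kinase gene, was at 13.8 FPKM under NC and 15.1 FPKM under the antagomiR and was not called (adjusted p = 0.289).

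Of 21 tested genes of a YAP target signature, which includes 5 of the 10 genes, 8 fell and 2 rose. Over all tested genes 9.21% fell and 17.5% rose. Ankrd1, Ccn1 and Ccn2 are among the 8, and so is Ptpn14, which was also counted in the Hippo list. The median log2 fold change of the 21 was -0.13. Without NC replicate 3, 10 fell and 3 rose, against 13.9% and 26.5% of all tested genes. Tgfb2, a transforming growth factor, had 135, 117 and 105 FPKM under NC and 71.3, 81.7 and 79.8 FPKM under the antagomiR, a log2 fold change of -0.61 (limma adjusted p = 0.00463). Gadd45a, a gene of growth arrest, fell from 17.7 ± 2 to 13.5 ± 0.501 FPKM (-0.36, adjusted p = 0.0193; SD, n = 3), a call lost without antagomiR replicate 1, 2 or 3 (0.0775, 0.0635 and 0.0584). Igfbp3, which encodes a binding protein for insulin-like growth factors, was one of the 2 that rose. It went from 20.4, 25 and 22.2 to 112, 130 and 136 FPKM, a 5.58-fold difference in means with a log2 fold change of 2.43 (adjusted p = 1.93e-05). The signature count dropped to 6 called genes with no filter and to 5 without antagomiR replicate 1, 2 or 3.

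Most structural SRF targets fell. Of 21 tested cytoskeletal SRF targets, Vcl among them, 15 fell and none rose, against 9.21% and 17.5% of all tested genes, and the list median was -0.47 (log2), against 0.06. Without NC replicate 3, 16 fell and 1, Wdr1, rose (0.13, limma adjusted p = 0.0478). Cnn1, a calponin, went from 99.7, 110 and 114 to 63.3, 56.6 and 57.6 FPKM, and the tropomyosin gene Tpm1 from 531, 525 and 481 to 320, 302 and 314 FPKM. In both genes all antagomiR libraries were below all NC libraries, with log2 fold changes of -0.85 and -0.71 (limma adjusted p = 0.000273 and 0.000351). The light chain gene Myl9 and Pdlim7, an adaptor of actin filaments, fell by 0.68 and 0.57. Not all targets moved: Actb and Cnn2 were at 3578 and 268 FPKM under NC and at 3552 and 267 FPKM under the antagomiR, and neither was called (adjusted p = 0.951 and 0.971). Several of these genes also mark smooth muscle. The 10 smooth muscle and pericyte markers summed to 381 to 395 FPKM under NC and 213 to 228 FPKM under the antagomiR, 6 of the 7 tested fell, and Rgs5, Kcnj8 and Abcc9, which mark pericytes, were below 0.5 FPKM in every library. At these low levels Kcnj8 and Abcc9 were higher in every antagomiR library than in any NC library, and Rgs5 overlapped. Des, the tested marker that did not fall, averaged 3.07 FPKM under NC and 4.16 FPKM under the antagomiR. It was not called (0.38, limma adjusted p = 0.169) but rose without NC replicate 3 (0.6, adjusted p = 0.00085). Mcam, Notch3 and Cspg4, other mural cell markers of the list, were well above 0.5 FPKM and fell. Mcam went from 161 ± 7.97 to 75 ± 3.24 FPKM, Notch3 from 26.4 ± 0.422 to 16.3 ± 0.482 FPKM and Cspg4 from 7.92 ± 0.26 to 5.25 ± 0.33 FPKM (SD, n = 3). The part of such cells in these falls was not tested.

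Of 7 tested genes for SRF and its cofactors 2 rose and none was called lower, a count too small to set apart from the 17.5% of all tested genes that rose. The risen genes were both of ETS-family cofactors: Elk3 went from 19 ± 2.17 to 29 ± 0.883 FPKM (0.59, limma adjusted p = 0.00244) and Elk4 from 5.71 ± 0.178 to 6.91 ± 0.416 FPKM (0.24, adjusted p = 0.0401; SD, n = 3). Elk4 lost its call with no filter (0.0657), under both other scalings (0.0973 and 0.347) and without any library but NC replicate 3 (0.0575 to 0.144). The actin-responsive cofactors Mrtfa and Mrtfb were at 13.8 and 7.36 FPKM under NC and at 14.4 and 7.05 FPKM under the antagomiR. Neither was called (adjusted p = 0.492 and 0.63), and the sign of Mrtfa changed under both other scalings. Of 9 tested immediate early SRF targets 4 fell and none rose, against 9.21% and 17.5% of all tested genes. Junb, the AP-1 subunit gene, had 59.5, 62.5 and 84.4 FPKM under NC and 96.6, 84.1 and 88.6 FPKM under the antagomiR and was not called (0.39, limma adjusted p = 0.0665), but it rose without NC replicate 3 (0.55, adjusted p = 0.00057). Fosb, an AP-1 subunit, went from 2.58 ± 0.47 to 0.512 ± 0.0484 FPKM (-1.23) and the nuclear receptor gene Nr4a1 from 7.42 ± 0.787 to 4.05 ± 1.13 FPKM (-0.76). At so low a level the added 1 shrinks the change of Fosb, which was -2.12 and -2.3 with pseudocounts of 0.1 and 0.01. Fos fell by 0.44 and Egr2 by 0.42. Fos lost its call with no filter (adjusted p = 0.053) and without NC replicate 2 (0.0808) or antagomiR replicate 2 or 3 (0.0627 and 0.0886). Egr2 lost it without the same libraries (0.0668, 0.0656 and 0.0634), and Nr4a1 without antagomiR replicate 3 (0.0532). The count of 4 was 2 without NC replicate 2 or antagomiR replicate 2, and 1 without antagomiR replicate 3.

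Most partners of vinculin at focal adhesions fell. Of 17 tested, Vcl included, 11 fell and none rose, against 9.21% and 17.5% of all tested genes, and the list median was -0.33 (log2). Without NC replicate 3, 13 fell and 1, the actin regulator gene Vasp, rose (0.36, limma adjusted p = 0.00043; 0.24 and 0.118 with all libraries). The actin crosslinkers Actn1 and Actn4 went from 341 ± 4.73 to 235 ± 3.35 FPKM (-0.53) and from 428 ± 5.66 to 307 ± 2.16 FPKM (-0.48; SD, n = 3). Ptk2, the focal adhesion kinase gene, fell from 55.9, 54.5 and 53.1 to 41.6, 40.3 and 40.0 FPKM (-0.41, limma adjusted p = 0.00102). Enah, which promotes actin filament growth, fell from 10.5 ± 0.436 to 6.94 ± 0.299 FPKM (-0.53). In each of these 4 genes all antagomiR libraries were below all NC libraries.

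**Figure D4:**
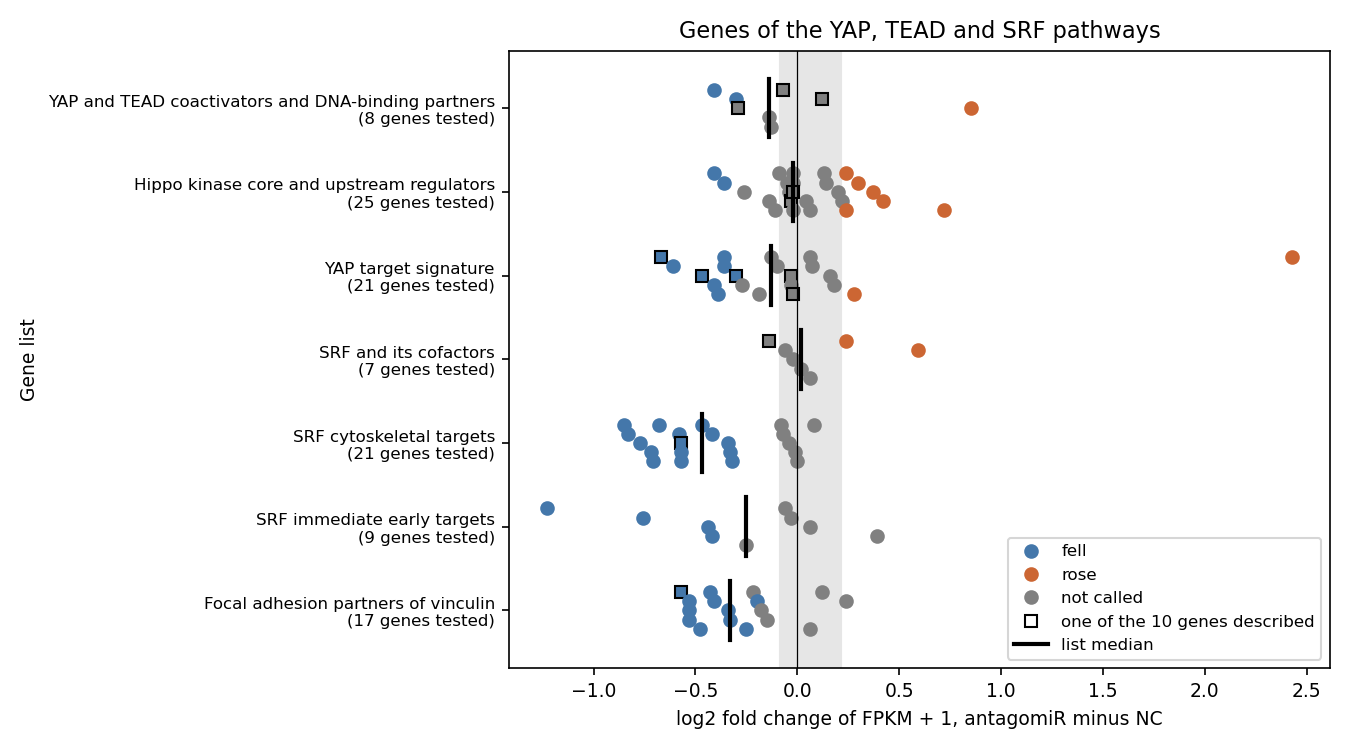
Log2 fold change of FPKM + 1, antagomiR minus NC, of every tested gene in 7 lists (dots; squares are the 10 genes described), coloured by whether the gene fell, rose or was not called; black lines are list medians and the grey band runs from the lower to the upper quartile of all tested genes, -0.09 to 0.22. Most cytoskeletal SRF targets and focal adhesion genes lie left of the band, while the Hippo genes lie on both sides of it.

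The genes whose values followed those of a called gene most closely were ranked over all tested genes that carry a symbol. The measure was the root mean square difference of log2(FPKM + 1) over the 6 libraries, after subtraction of each gene's NC mean. The added 1 shrinks the change of genes at low FPKM. Sema3a, ranked below beside Vcl, went from 2.31 to 1.29 FPKM on average, a larger relative fall than that of Vcl. Nearest to Ankrd1 were the kinesin gene Kif5b, at 0.029, the smooth muscle myosin gene Myh11, at 0.031, and Tmtc1, at 0.037. Kif5b had 102, 93.0 and 77.6 FPKM under NC and 57.0, 53.9 and 54.2 FPKM under the antagomiR, with NC replicate 3 lowest of the NC libraries as for Ankrd1. Nearest to Ccn1 were Shroom1 (0.025), Zfp36 (0.027) and Acap3 (0.030), and to Ccn2 Castor1 (0.017), the tropomyosin gene Tpm4 (0.018) and Mycn (0.021). Nearest to Vcl were Aldh1a3 (0.027), Nt5dc3 (0.031) and Sema3a (0.035). No gene was in the nearest 3 of more than 1 of these 4. The ranking takes in the size of the change, in which the 4 differ, so this lack of overlap says little about them.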

How the data were processed

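Values are FPKM deposited by the authors for 3 NC and 3 antagomiR libraries, with symbols and coordinates. Per the submitters' processing notes, which give no versions or order, the tools were HISAT2, HTSeq, edgeR, cutadapt and FastQC and the build mRatBN7.2. The annotation release and strand setting are not given in the sources used here, so reads of overlapping or duplicated genes cannot be told apart. Reads were paired, of 150 bp, per the labels' protocols. Columns were matched to samples by title, and 0 were left unassigned.

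Each FPKM value was a whole number of fragments (within 0.01) divided by a whole gene length and library total for 100% of the 20134 genes above 0, which gave the fragments and totals. Replicates differed by more than sampling noise (chi-square per degree of freedom 3.53 to 31.62).

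The test was limma 3.58.1 in R 4.3.3 with a variance trend, run on log2(FPKM + 1) of genes averaging 1 FPKM or more and tested on simulated data. The 10 genes and the lists were chosen with earlier results of these data known. Named genes are the 10, up to 4 others with the smallest p in each of 7 pathway lists, and the nearest 3 to each called gene. Lats1, Amotl1, Actb, Cnn2, Vgll2, Junb, Vasp, Wdr1 and the markers were added with values in view. Other settings tried were pseudocounts of 0.1 and 0.01, no filter, a minimum of 5 FPKM, 2 scalings, a replicate block, no trend, voom on recovered fragments, and leaving out each library.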

Additional observations from a re-analysis of the deposited data

How the results depend on the processing

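Ankrd1, Ccn1 and Vcl kept their direction and call in all 15 alternatives. Over the 10 genes and the alternatives, 136 pairs of gene and setting gave the same call and sign, 6 lost a call (all Ccn2), 4 gained one, and 4 changed sign without a call. The sign changes were Lats2 at 0.03 without NC replicate 1 and 0.00017 without NC replicate 2, and Amotl2 at 0.03 and 0.0055; leaving out 1 library gave -0.1 to 0.03 for Lats2 and -0.09 to 0.03 for Amotl2. Mrtfa changed sign at -0.0059 with median-ratio scaling and -0.04 with quantile normalization. The count of called genes among the 10, 4, was 3 to 6 when 1 library was left out (3 to 5 fell) and 3 to 5 otherwise.

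The labels do not say that equal replicate numbers mark a shared preparation, and deviations from the group means correlated at -0.16, -0.06 and -0.04 for equal numbers, so the numbers were not taken to pair the libraries. With the replicate block 2380 genes were called, Ccn2 (adjusted p = 0.123), Gadd45a (0.0518), Elk4 (0.103) and Egr2 (0.0588) lost their calls, and 5 genes of the YAP target signature and 1 of the SRF cofactors were called.

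Over all genes 3216 were called, 2109 up and 1107 down, and 1883 to 4862, 1216 to 3185 and 667 to 1677 without 1 library, each highest when NC replicate 3 was omitted. Fallen genes numbered 1869 with quantile normalization. Of called genes 65.6% had risen, against 51.4% with median-ratio scaling and 43.1% with quantile normalization. Without 1 library, called genes numbered 3 to 5 among YAP and TEAD factors, 4 to 10 among Hippo genes, 5 to 13 in the YAP signature, 1 to 2 among SRF cofactors and 1 to 5 among immediate early targets. With no filter the YAP signature had 6 and the SRF cofactors 1. Median-ratio scaling gave 5 YAP and TEAD factors. A minimum of 5 FPKM gave 2 immediate early targets, since fewer were tested. The cause of the other differences was not tested. The replicate spread of Srf and Yap1 in NC, 2.68% and 1.93% of the mean, was close to their largest counting SD, 2.4% and 1.59%.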
